A study of Mus musculus with 3 samples.

Results

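MHC class II genes were followed across the leukocytes and wall cells of the mouse aorta: the alpha and beta chain genes H2-Aa, H2-Ab1 and H2-Eb1, the peptide-editing genes H2-DMa, H2-DMb1, H2-DMb2, H2-Oa and H2-Ob, the invariant chain gene Cd74, and Ciita, the regulator of the family. They were chosen by name, and all 10 of them, out of 27998 genes in the count tables, carried UMIs (unique molecular identifiers, one per captured RNA molecule). The study sorted cells from suprarenal aortas for single-cell RNA sequencing to describe macrophage diversity in aortic lesions. Its aneurysm library came from 4 ApoE-/- mice that breathed cigarette smoke and had aneurysms large enough to measure. The room air library came from 5 ApoE-/- mice that breathed room air. Both ApoE-/- groups ate a Western (high-fat) diet, and the labels give 16 weeks as the length of diet and smoke exposure. The control library came from 5 C57Bl/6 mice on chow. The aortas of each group were pooled, so each group is 1 library with no replicate. ApoE-/- mice, which lack apolipoprotein E and develop atherosclerosis on such a diet, differed from the controls in genotype and diet together, and the aneurysm mice differed from the room air mice in smoke exposure and in having been picked for an aneurysm. Within each comparison these cannot be told apart. The sort kept CD45+CD31- leukocytes and CD45-CD31+ cells of the wall, although the cell type field of the labels gives CD45+ leukocytes only.

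MHC class II molecules are cell-surface pairs of an alpha and a beta chain that show peptides from engulfed material to CD4+ T cells. Cd74, the invariant chain, guides newly made pairs to the endosome and leaves a fragment in their groove. The DM pair (H2-DMa with an H2-DMb chain) trades that fragment for other peptides, and the DO pair (H2-Oa with H2-Ob) restrains DM, mainly in B cells. Ciita does not bind DNA itself but switches the family on through factors seated on the X and Y boxes of its promoters. Dendritic cells, B cells and macrophages are the usual carriers. C57BL/6 mice make H2-Eb1 RNA but no I-E molecule, because their alpha chain gene for I-E is inactive.

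In GRCm38 (mm10) with the GENCODE vM21 annotation all 10 genes are protein-coding. Apart from Cd74 and Ciita they lie on chromosome 17, in the order H2-Oa (chr17:34092340-34095234, plus strand), H2-DMa (chr17:34119541-34139101, plus), H2-DMb2 (chr17:34143307-34151555, plus), H2-DMb1 (chr17:34153072-34160230, plus), H2-Ob (chr17:34238903-34254414, plus), H2-Ab1 (chr17:34257689-34269419, plus), H2-Aa (chr17:34282744-34287823, minus) and H2-Eb1 (chr17:34305867-34316674, plus).

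RefSeq promoter windows of GRCm38.p6 were at hand for 7 of the 10 genes, with none for H2-Ab1, Cd74 and Ciita. The core of the Y box, TGATTGG, stood within 250 bases before the start in 6 of those 7 genes, and in 7.23% of all 32851 promoter windows searched on both strands. The core of the X box, AACNGATG, stood there in H2-Eb1, H2-DMb1 and H2-DMb2, and in 1.98% of all windows. Both cores stood in the same window for these 3 genes and in 0.146% of all windows. H2-DMa had neither in its 2 windows, which says only that these letters are not there. The stretches below are shown because they hold letters of the X box core, the Y box core or both. Matching letters do not show that Ciita acts there. They run from 150 to 31 bases before the RefSeq start, 5′ to 3′ on the gene's strand, with the X and Y box cores in capitals. For H2-DMb1 the stretch covers bases 92 to 63 before the start, lies within an annotated exon, and its last capital is the first letter of the Y box.
H2-Aa: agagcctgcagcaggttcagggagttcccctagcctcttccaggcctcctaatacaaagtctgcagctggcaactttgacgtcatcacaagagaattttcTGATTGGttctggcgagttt
H2-Eb1: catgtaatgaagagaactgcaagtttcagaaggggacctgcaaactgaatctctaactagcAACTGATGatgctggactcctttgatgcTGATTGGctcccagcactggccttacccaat
H2-DMb1: AACTGATGatgctaggctgattcactcagT
H2-DMb2: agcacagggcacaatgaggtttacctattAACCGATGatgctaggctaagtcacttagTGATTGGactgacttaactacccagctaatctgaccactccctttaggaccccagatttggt
H2-Oa: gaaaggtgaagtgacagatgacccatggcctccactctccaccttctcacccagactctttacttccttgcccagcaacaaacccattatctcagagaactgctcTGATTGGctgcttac
H2-Ob: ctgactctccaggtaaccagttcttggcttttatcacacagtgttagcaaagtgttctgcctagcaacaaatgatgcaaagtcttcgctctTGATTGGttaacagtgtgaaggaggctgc
Their places are chr17:34287854-34287973 for H2-Aa (minus strand), chr17:34305717-34305836 for H2-Eb1, chr17:34153099-34153128 for H2-DMb1, chr17:34145099-34145218 for H2-DMb2, chr17:34092229-34092348 for H2-Oa and chr17:34238755-34238874 for H2-Ob, the last 5 on the plus strand. In the H2-Oa stretch, 9 bases fall in an annotated exon. The windows of the DMb pair were 83.3% identical over 209 aligned bases. Their longest coding transcripts, of 1404 and 1483 bases for H2-DMb1 and H2-DMb2, were 94.6% identical over 1219 aligned bases. Of the 98-base stretches in the last 500 bases of the transcripts, where a 3′ library reads, 44 of 403 (10.9%) of H2-DMb1 also occurred in H2-DMb2, against 0 of 409 of H2-DMb2 in any other gene. The split of reads between this pair is uncertain to that extent.

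The libraries held 16698309 UMIs in 2842 cells (aneurysm), 9998517 in 1851 (room air) and 2568192 in 782 (control), with medians of 4476, 3884 and 2681 UMIs per cell for aneurysm, room air and control. The labels state 2685, 1736 and 738 cells, with viability of 94%, 91% and 73%, for aneurysm, room air and control. The part of viability in any difference was not tested. After filtering and removal of likely doublets, 5369 cells in 23 clusters were kept. Apoe was at 13.1 CPM (counts-per-million of all UMIs) in the aneurysm library and 17.1 CPM in the room air library, against 10532.5 CPM in the control library, as the genotypes on the labels would have it. Ptprc, the CD45 gene, was at 360 CPM (aneurysm), 347 CPM (room air) and 270 CPM (control), and Pecam1, the CD31 gene, at 40.7, 60.1 and 147 CPM for the same libraries. The libraries shared 0 to 5 cell barcodes in pairs. Classes were named from marker genes, with the 10 class II genes kept out of the clustering, and carry the ending -like. All levels below are the summed UMIs of a class in a library, in CPM of that class. Intervals are 95%, exact, and cover counting error only, not the difference between mice. With 1 library a group no test between conditions is possible, so a gene counts as higher or lower where its level differs by at least 1.5-fold. UMIs of these genes also reached cells that should lack them. T cell-like cells held a summed level of the 10 genes of 3893 CPM in the aneurysm library, 7661 CPM in the room air library and 2341 CPM in the control library. These are the background levels against which low values are set.

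Ciita lies at chr16:10480059-10528418 and Cd74 at chr18:60803848-60812652, both on the plus strand. The 10 genes made up 4.85% of all UMIs in the kept cells of the aneurysm library, 4.58% in room air and 3.62% in control. A Cd74 UMI was found in 98.3% of the 5369 kept cells, an H2-Ab1 UMI in 96.2%, an H2-Aa UMI in 93.0% and an H2-Eb1 UMI in 87.7%. The editing genes reached fewer cells, with 67.5% for H2-DMa, 55.3% for H2-DMb1, 38.2% for H2-DMb2, 26.6% for H2-Oa and 25.2% for H2-Ob. Ciita was found in 760 cells, or 14.2%. Since T cell-like cells held UMIs too, these shares are not shares of cells that express the genes.

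Conventional dendritic cells stood at the top of every library. The leading genes of cDC2-like cells included Ifitm1, Cd209a, Ccl17, Il1r2 and Flt3. Their summed level was 86389 CPM in aneurysm (276 cells) and 89786 CPM in room air (135 cells). Control had only 18 such cells, under the 25 needed for a comparison, at 117298 CPM. In cDC1-like cells (Ifi205, Xcr1 and Clec9a among the leading genes), the summed level was 81442 CPM in aneurysm and 79123 CPM in room air, against 89828 CPM in control. Mature dendritic cell-like cells, which carried Ccr7, Fscn1 and Ccl22, reached 68732 CPM in aneurysm and 58711 CPM in room air, and the control library had none. B cell-like cells followed with 55625, 53320 and 52889.5 CPM for aneurysm, room air and control. Macrophage-like cells held 51854 CPM in aneurysm and 47712 CPM in room air, against 31505 CPM in control. Monocyte-like cells held 35266, 31141 and 20429 CPM for the same libraries. Cluster 19, led by Retnla, Lyz1, Ear2 and Fn1 and left unnamed, was at 76468 CPM in aneurysm and 60536 CPM in control, with too few cells in room air. In the aneurysm library the intervals of neighbours in this order did not overlap from cDC2-like down to dividing cells, where 35788 CPM and the 35266 CPM of monocytes overlapped. In the room air and control libraries the order among dendritic, B, macrophage-like and monocyte-like cells was likewise clear of counting error. Wall cells of cluster 18, marked by Cytl1, Cldn5, Eln and Cav1, were at 4477 CPM in aneurysm and 7280 CPM in room air, against 2062 CPM in control. T cell-like cells of the same libraries held 3893, 7661 and 2341 CPM. The intervals of cluster 18 and T cell-like cells overlapped in room air and control, while in aneurysm the cluster 18 level, from 27 cells, lay above that of T cell-like cells (interval 4134 to 4842 CPM, against 3797 to 3990 CPM).

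**Figure D1:**
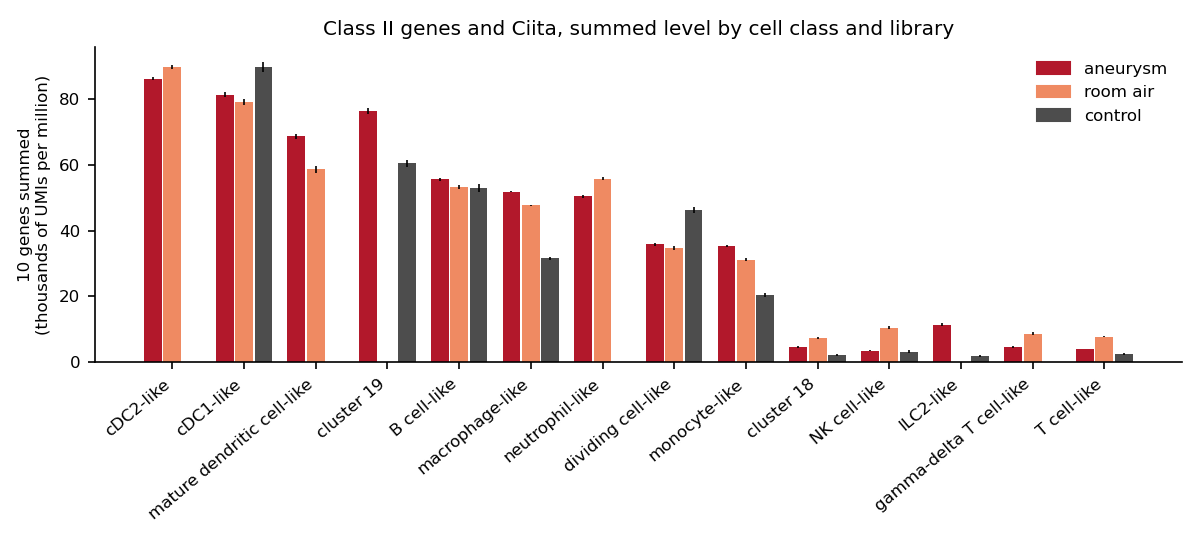
Summed level of the 10 genes by cell class and library, in 1000 CPM, with exact 95% Poisson intervals as error bars and 1 library per group. Dendritic cells stand highest (86389 CPM in aneurysm cDC2-like cells) and T cell-like cells near the floor (3893 CPM in aneurysm), while macrophage-like cells stand at 51854 CPM in aneurysm and 47712 CPM in room air, against 31505 CPM in control.

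H2-Aa, the alpha chain of I-A, was at 14414 CPM in aneurysm cDC2-like cells and 14380 CPM in those of room air. In cDC1-like cells H2-Aa was at 13003 CPM in aneurysm and 12251 CPM in room air, against 13442 CPM in control. B cell-like cells held 7608 CPM of H2-Aa in aneurysm and 7193 CPM in room air, against 5834 CPM in control. H2-Aa was thus close between the libraries in dendritic cells, and the B cells of both ApoE-/- libraries lay above those of control. The background differed too, and these levels are not corrected for it. In T cell-like cells of aneurysm, room air and control, H2-Aa was at 683, 1392 and 346 CPM. H2-Ab1 was at 940, 2226 and 516 CPM there, and H2-Eb1 at 414, 856 and 239 CPM. H2-Ab1, its beta chain partner, followed with 7583 CPM (aneurysm), 7950 CPM (room air) and 6517 CPM (control) in B cell-like cells. H2-Eb1 had 4398, 4452 and 3381 CPM in B cell-like cells of aneurysm, room air and control. Cd74, in the other direction, was at 32521 CPM in aneurysm and 30404 CPM in room air, against 33909.8 CPM in control, so Cd74 in room air was 1.12-fold lower than in control. The B-cell sum was 1.01-fold control in room air (interval 0.983 to 1.03) and 1.04-fold room air in aneurysm. Between room air and control, 1 of 10 genes passed 1.5-fold, H2-DMb1, from 137 against 22 UMIs (1.55-fold, interval 0.982 to 2.55), where 24.7% of all genes tested were that much higher and 11.5% that much lower. Between aneurysm and room air, 0 of 10 passed, where 7.39% of genes were higher and 16% lower. The members' counts in B cells were no larger than these backgrounds. For H2-DMb1 the T cell-like level was 116 CPM in room air, 49.0% of the B cell-like level, against 10.6 CPM (6.94%) in control. Over all alternatives the log2 ratio of the B-cell sum, room air over control, ran between -0.147 and 0.027.

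The cDC1-like sum was 0.881 times control in room air (interval 0.862 to 0.90). H2-Oa (2.16-fold, from 87 against 16 UMIs) and Ciita (4.36-fold, from 22 against 2 UMIs, interval 1.07 to 38.3) were the 2 of 10 genes higher, against a background of 29.3% higher and 8.16% lower. Aneurysm over room air gave a cDC1-like sum of 1.03 and 0 of 10 genes past 1.5-fold, with 14.2% of all genes higher and 9.14% lower. Behind the control values stood 26 cells, and with every cell thinned to 1000 UMIs 0 of the 6 genes with enough UMIs were higher in room air than control and 1, H2-DMa, was lower. The alpha and beta chain genes of cDC1-like cells differed by under 1.5-fold in both comparisons.

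**Figure D2:**
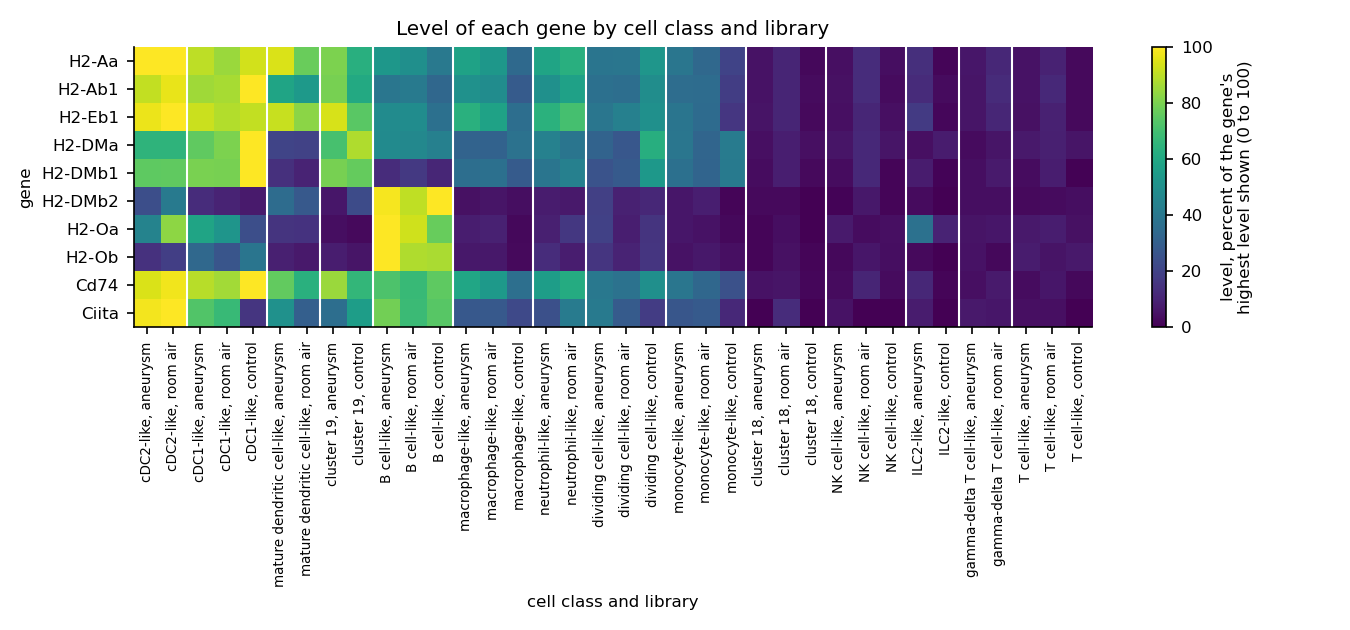
Heat map of each gene's level by cell class and library, as a percent of the highest level of that gene shown. H2-Oa, H2-Ob and H2-DMb2 peak in B cell-like cells (H2-DMb2 at 1422 CPM in aneurysm and 1303 CPM in room air, against 1443 CPM in control), while H2-DMb1 peaks in conventional dendritic cells.

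In macrophage-like cells, 6 of the 10 genes stood higher in the room air library than in the control library and 0 were lower, where 25% of the 9357 genes tested were that much higher and 13.5% that much lower. H2-Aa was at 7606 CPM in room air, against 4952 CPM in control, a ratio of 1.54. H2-Ab1 was at 9414 CPM, against 5586 CPM (1.69-fold, interval 1.64 to 1.73), and H2-Eb1 at 5284 CPM, against 3319 CPM (1.59-fold). All 3 chain genes stood higher in room air by similar ratios. Cd74 stayed just under the threshold, with 24157 CPM in room air, against 16496 CPM in control (1.46-fold). The summed level was 1.51-fold higher (interval 1.497 to 1.53). H2-DMa ran the other way at 534 CPM in room air, against 639 CPM in control, 1.20-fold lower, and H2-DMb1 was at 532 CPM and 416 CPM (1.28-fold) in those libraries. H2-DMb2 (80.3 CPM in room air, 50.8 CPM in control; 1.58-fold), H2-Oa (44.2 and 10.9 CPM; 4.06-fold from 169 against 12 UMIs) and H2-Ob (35.3 and 14.5 CPM; 2.43-fold) were the other 3 past the threshold. Those 3 were low. In T cell-like cells of room air and control H2-DMb2 was at 43.8 and 53.2 CPM, H2-Oa at 38.2 and 21.3 CPM and H2-Ob at 28.9 and 37.2 CPM, so in control all 3 macrophage levels lay at or below that background, and in room air H2-DMb2 lay above it. Ciita was at 26.4 CPM in room air, against 20.9 CPM in control (1.27-fold, interval 0.798 to 2.09). The median log2 ratio of the 10 genes was 0.64, beside 0.14 for all genes tested.

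The macrophage clusters were spread unevenly over the libraries, and the size of the difference changed when a cluster was left out. Cluster 9 (Apoe, Ccl24, Lyve1, Cd163) held 6 of the 618 aneurysm macrophages, 12 of 509 in room air and 278 of 298 in control. Cluster 2 (Spp1, Gpnmb, Mmp12) held 275 aneurysm, 188 room air and 2 control cells, and cluster 7 (Ccl12, Cxcl10, Ifit3) held 137, 196 and 11. The summed level was 28618 CPM in room air cluster 2 and 28809 CPM in control cluster 9. In room air it was 73073 CPM in cluster 7, 63109 CPM in cluster 13 (Ccl8, Nxpe5, Cx3cr1) and 41938 CPM in cluster 12 (Cxcl13, Cd209f, Folr2). Within the room air library cluster 7 stood 2.55-fold over cluster 2. With cluster 7 left out, the log2 ratio of the sum, room air over control, was 0.30 in place of 0.60, with 3 genes higher and 1 lower. With cluster 2 left out it was 1.06, with 9 genes higher. With the T cell-like level of the same library subtracted it was 0.46, and 0 of the 7 genes still measurable passed 1.5-fold. Centred on the median of all genes it was 0.46, with 3 genes higher. Depth differed too, with medians of 7612.5, 6321 and 3202.5 UMIs per macrophage-like cell in aneurysm, room air and control, and with every cell thinned to 1000 UMIs the log2 ratio was 0.74. Cluster 9 lay mostly in control and was led by Apoe, the gene that the ApoE-/- mice lack. Cells of another kind and a shift in the same cells therefore cannot be told apart here. The part of genotype, diet and cell make-up in the difference was not tested.

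Between the aneurysm and the room air library the macrophage-like levels lay close together. H2-Aa was at 8288 CPM in aneurysm and 7606 CPM in room air, H2-Ab1 at 9842 and 9414 CPM, and Cd74 at 26673 and 24157 CPM. The sum was 1.09-fold higher (interval 1.08 to 1.09), and 0 of 10 genes passed 1.5-fold, where 4.11% of all genes were higher and 7.02% lower. H2-DMb2 was 1.22-fold lower, at 65.5 CPM in aneurysm and 80.3 CPM in room air. By cluster, the sum in aneurysm over room air was 1.23-fold in cluster 2 (35164 and 28618 CPM), 1.23-fold in cluster 7 (89739.9 and 73073 CPM), 1.27-fold in cluster 12 (53070 and 41938 CPM) and 0.945-fold in cluster 13 (59665 and 63109 CPM). The ratios of clusters 2, 7 and 12 were larger than that of the whole class. Cluster 7, the highest in level, made up 137 of 618 macrophage-like cells in aneurysm and 196 of 509 in room air. In clusters 2, 7, 12 and 13, 0 of the 10 genes passed 1.5-fold. The share of all genes higher and lower was 6.63% and 7.61% in cluster 2, 6.72% and 11.6% in cluster 7, 13.2% and 10.1% in cluster 12, and 9.08% and 11.3% in cluster 13. With cluster 7 left out, the log2 ratio of the sum in the class was 0.26 in place of 0.12.

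**Figure D3:**
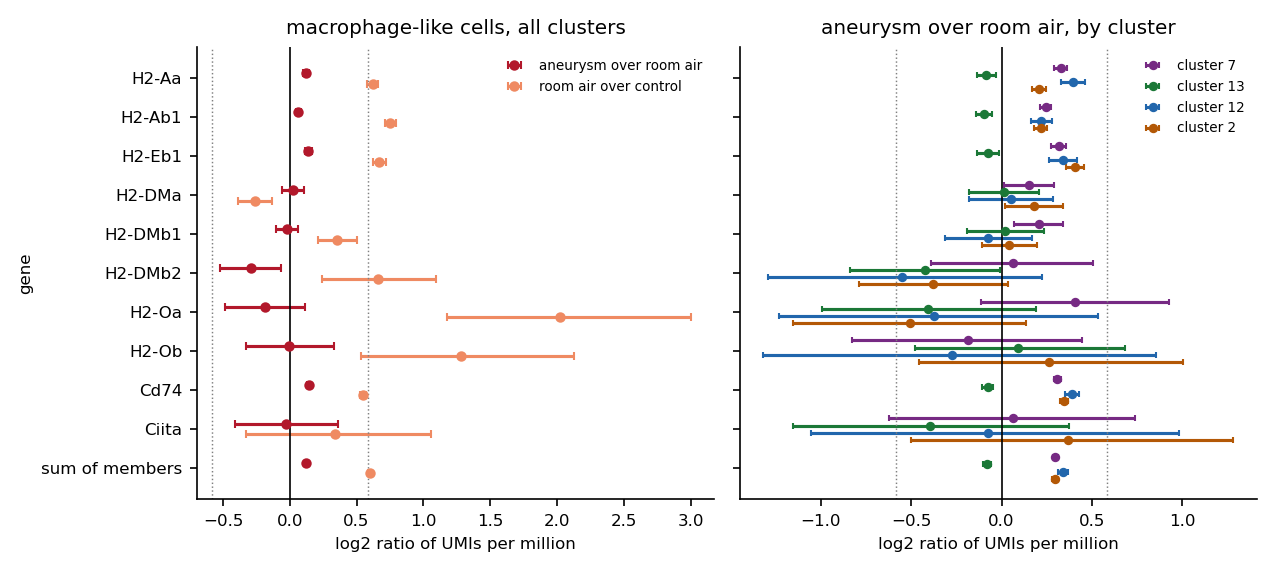
Log2 ratios of the 10 genes and of their sum in macrophage-like cells, with conditional binomial 95% intervals and dotted lines at 1.5-fold in either direction. In the left panel the room air over control ratios of H2-Aa, H2-Ab1 and H2-Eb1 lie past the upper line while H2-DMa is 1.20-fold lower, and in the right panel the aneurysm over room air ratios of clusters 2, 7, 12 and 13 are given per cluster, with a sum of 0.945 in cluster 13 and 1.27 in cluster 12.

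Single cells showed how unevenly the macrophages carried these genes. Each cell was thinned to 1000 UMIs, which left out 0 cells. The median cell of cluster 7 then held 98 UMIs of the 10 genes in aneurysm and 73 in room air. Cluster 2 had medians of 19 in aneurysm and 14 in room air, but its 90th percentiles were 86 and 72.9. Cluster 2 thus spanned cells near background and cells as rich as the middle of room air cluster 7. Of its cells, 33.5% in aneurysm and 43.1% in room air lay at or below the 90th percentile of T cell-like cells in the same library (6 and 11 UMIs), against 2.19% and 3.57% in cluster 7. Control cluster 9 had a median of 16 and a 90th percentile of 77.3, with 24.8% of cells at or below the T-cell level of 3. In that cluster the 143 cells with a Lyve1 UMI had a median of 8, against 26 in the 135 cells without one. The 23 cells with a Ccr2 UMI had a median of 57, against 12 in the other 255. Lyve1 marks resident macrophages of vessel walls and Ccr2 is the chemokine receptor of monocytes and their progeny. Other genes were split in the same way. Medians with and without a UMI were 11 and 29 for Folr2, 10 and 20 for Cd163, and 11 and 21 for Ccl24. Timd4, also a resident marker, split the cells little, with medians of 13 and 16. For Cx3cr1 the medians were 26.5 and 14, and for Cd209a 31.5 and 13. What these splits reflect was not tested. B cell-like cells were more even, with medians of 58, 55 and 56 for aneurysm, room air and control and 10th percentiles of 41, 40 and 30.8.

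**Figure D4:**
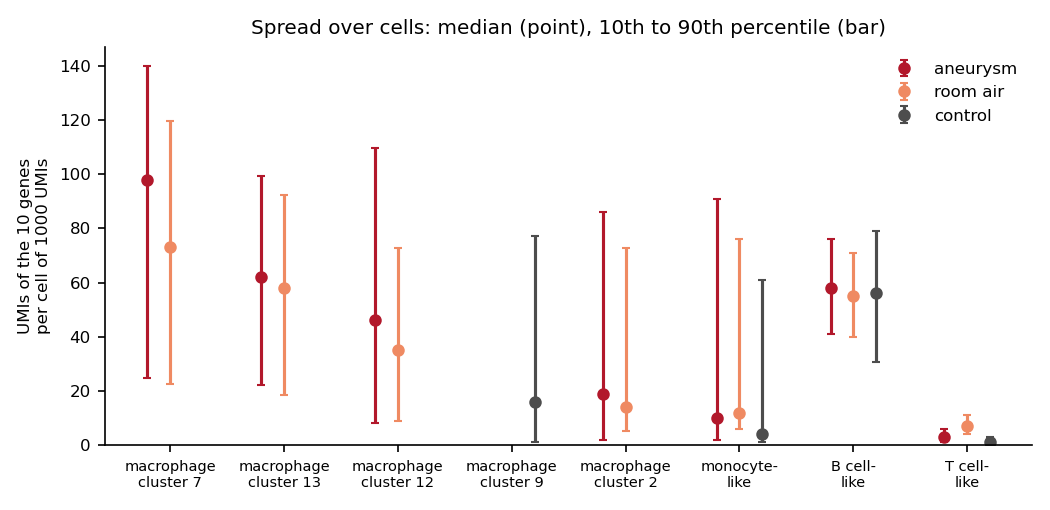
UMIs of the 10 genes per cell after thinning every cell to 1000 UMIs, by class or macrophage cluster and library. Points are medians and bars run from the 10th to the 90th percentile of cells, so that cluster 7 (median 98 in aneurysm, 73 in room air) can be set beside cluster 2 (19 and 14) and T cell-like cells (3 in aneurysm, 7 in room air, 1 in control).

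Monocyte-like cells (Chil3, Hp, Treml4, Plac8) showed the same order of libraries as macrophage-like cells. H2-Aa was at 5635 CPM in aneurysm and 4858 CPM in room air, against 2888 CPM in control. H2-Ab1 was at 6959, 6855 and 3554 CPM, and H2-Eb1 at 3555, 3184 and 1458 CPM for aneurysm, room air and control. Room air over control gave 5 of 8 genes higher, with 29.1% of all genes higher and 8.48% lower. They were H2-Aa (1.68-fold), H2-Ab1 (1.93-fold), H2-Eb1 (2.18-fold), H2-DMb2 (5.43-fold, from 76 against 4 UMIs) and H2-Ob (1.64-fold, from 23 against 4 UMIs). In control, H2-DMb2 and H2-Ob were each at 21.8 CPM, below the T cell-like levels of 53.2 and 37.2 CPM. In room air they were at 119 and 35.9 CPM, where T cell-like cells had 43.8 and 28.9 CPM. H2-DMa was 1.28-fold lower, at 552 CPM in room air, against 709.7 CPM in control, as it had been lower in macrophages. Cd74 was 1.35-fold higher in room air, and the sum was 1.52-fold higher (log2 0.61). Neither the sum nor the count held. When only cells with at least 500 genes and at most 5% mitochondrial UMIs were kept, the log2 ratio was -0.22, with 1 of 7 genes higher and 2 lower. With T cell-like levels subtracted it was 0.38, with 2 of 6 genes higher, H2-Ab1 and H2-Eb1, and 2 lower, H2-DMa and H2-DMb1. Over all alternatives the count of genes higher ran between 1 and 7. Aneurysm over room air gave a sum of 1.13-fold and 0 of 10 genes past the threshold, where 10.6% of genes were higher and 9.95% lower. Its log2 ratio of 0.18 ran between -0.16, with cells classed one by one on their markers, and 0.42, with T cell-like levels subtracted, and up to 1 gene was higher and up to 2 were lower.

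The monocytes were a mixture, with medians of 10, 12 and 4 thinned UMIs per cell but 90th percentiles of 91, 76 and 60.8 in aneurysm, room air and control. Cells without a Chil3 UMI (Chil3 is a chitinase-like protein of Ly6C-high monocytes) held more of the 10 genes than cells with one in every library. The sums without and with Chil3 were 48302 and 30921 CPM in aneurysm, 44300.2 and 26145 CPM in room air, and 31092 and 10803.5 CPM in control. Cells with a C1qa UMI, a complement gene of macrophages, held 38176 CPM in aneurysm, against 25998 CPM in cells without. In room air these sums were 31879 CPM with C1qa and 16832 CPM without, the second from 11 cells. In control they were 20208 CPM with and 20589 CPM without, so the C1qa split did not separate the control monocytes. These genes were chosen after the levels were seen.

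The DMb pair divided the presenting cells into those rich in H2-DMb1 and those rich in H2-DMb2. H2-DMb1 was at 1085 CPM in aneurysm cDC2-like cells and 1089.96 CPM in room air, and at 182 CPM in aneurysm and 237 CPM in room air, against 153 CPM in control B cell-like cells. H2-DMb2 was at 348 CPM in aneurysm and 594 CPM in room air cDC2-like cells, and at 1422, 1303 and 1443 CPM in B cell-like cells of aneurysm, room air and control. As a share of the UMIs of the pair, H2-DMb2 made up 88.6% in aneurysm B cells, 84.6% in room air and 90.4% in control. In macrophage-like cells the share was 11.1%, 13.1% and 10.9% for the same libraries. B cells carried mainly H2-DMb2 UMIs and macrophages mainly H2-DMb1 UMIs in all 3 libraries. The cDC1-like share was 13.6% in aneurysm, 10.9% in room air and 6.57% in control, and the cDC2-like share 24.3% in aneurysm and 35.3% in room air.

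**Figure D5:**
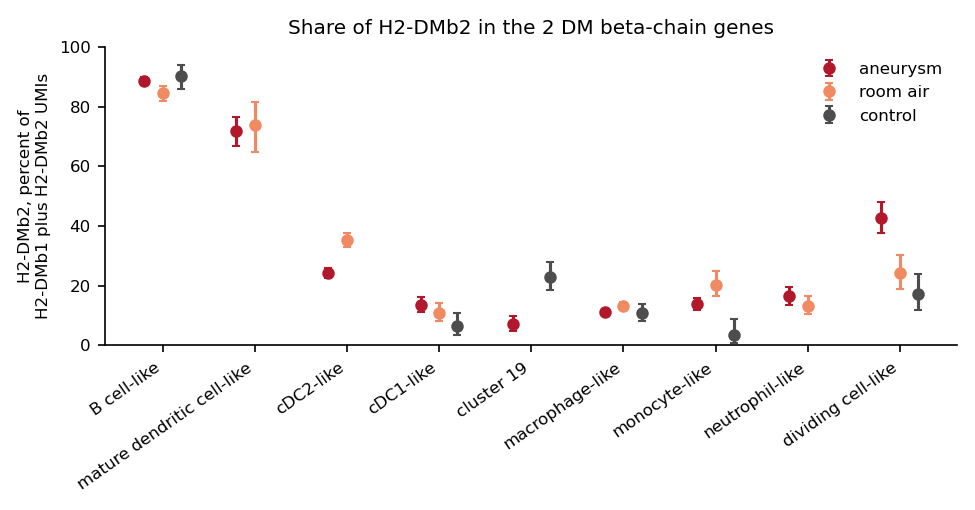
Share of H2-DMb2 in the summed UMIs of H2-DMb1 and H2-DMb2, in percent, by class and library, with exact 95% intervals, for classes with at least 50 UMIs of the pair. B cell-like cells (84.6% to 90.4%) and mature dendritic cell-like cells (71.8% in aneurysm, 73.9% in room air) lie high, and macrophage-like cells (10.9% to 13.1%) and cDC1-like cells low.

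Mature dendritic cell-like cells stood with the B cells, at 71.8% H2-DMb2 in aneurysm and 73.9% in room air. H2-DMa, H2-DMb1, H2-Oa, H2-Ob, Ciita and H2-Ab1 were over 1.5-fold lower than in cDC2-like cells of both libraries. H2-Aa and H2-Eb1 were within 1.5-fold of them. Ciita was at 47.6 CPM in aneurysm and 28.5 CPM in room air mature cells, against 92.6 and 94.1 CPM in cDC2-like cells. H2-Ob was at 47.6 and 38.1 CPM, against 78.4 and 101 CPM, with T cell-like cells at 42.4 and 28.9 CPM. H2-DMb1 was at 201 CPM in aneurysm and 143 CPM in room air, 5.41-fold lower than in aneurysm cDC2-like cells and 7.64-fold lower than in those of room air. T cell-like cells held 48.6 and 116 CPM of H2-DMb1, 24.2% and 81.5% of these levels. The room air ratio and H2-DMb2 share therefore rest on an H2-DMb1 level near background. H2-DMa was at 345 CPM in aneurysm, where cDC2-like cells had 1107 CPM (3.20-fold lower), and at 338 CPM in room air, where they had 1103 CPM (3.26-fold lower). H2-Oa was at 72.4 CPM in aneurysm and 71.4 CPM in room air, 2.97-fold and 5.60-fold lower than in cDC2-like cells. In aneurysm and room air the T cell-like level was 33.7% and 43.5% of the mature-cell level for H2-DMa, and 45.6% and 53.5% for H2-Oa. H2-Ab1 was at 11352 CPM in aneurysm and 10477 CPM in room air, 1.55-fold and 1.79-fold lower than in cDC2-like cells. Cd74 was 1.25-fold lower in aneurysm and 1.55-fold lower in room air. H2-Aa was at 13619 CPM in aneurysm, 0.945 times the cDC2-like level. H2-DMb2, at 511 CPM in aneurysm and 404 CPM in room air mature cells, was 1.47-fold higher than in aneurysm cDC2-like cells but 1.47-fold lower than in those of room air. In aneurysm over room air, all 10 genes of mature dendritic cells had ratios over 1, the sum was 1.17-fold higher and 1 gene passed the threshold, Ciita, from 23 against 6 UMIs (1.67-fold, interval 0.660 to 5.00). The background was 10.8% higher and 14.4% lower.

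In cDC2-like cells, 2 of 10 genes were lower in aneurysm than in room air and 0 were higher, where 9.58% of all genes were lower and 9.25% higher. H2-DMb2 was 1.71-fold lower (interval 1.53 to 1.91) and H2-Oa, the DO alpha chain, 1.86-fold lower (interval 1.62 to 2.13), at 215 CPM in aneurysm and 399.9 CPM in room air. With every cell thinned to 1000 UMIs, the 2 genes past the threshold were H2-Oa and H2-Ob, and H2-DMb2 was not. The sum of all 10 was 0.962-fold. The other 8 genes lay within 1.5-fold, and H2-Aa, H2-DMa, H2-DMb1 and Ciita had ratios between 0.983 and 1.00. In the 18 control cDC2-like cells, too few to compare, H2-DMb2 was at 267 CPM and H2-Oa at 178 CPM. Both genes are high in B cells as well. No UMI of the B-cell genes Cd79a, Ms4a1 and Cd79b was found in 177 of 276 aneurysm cells and 57 of 135 room air cells. In those cells H2-DMb2 was at 314 CPM in aneurysm and 730 CPM in room air, and H2-Oa at 191 and 435 CPM. The choice of such cells may depend on depth and background, and the part of B-cell RNA was not tested. H2-DMb2 and H2-Oa were then counted together in each cell of the whole class. After thinning, H2-Oa was found in 33.8% of aneurysm cDC2-like cells with H2-DMb2, against 9.48% of those without, and in 48.1% against 16.9% in room air. In B cell-like cells H2-Oa was found in 38.2% of cells with H2-DMb2 and 31.5% of cells without in aneurysm, 32.2% and 37.8% in room air, and 30.1% and 26.9% in control.

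The cDC2-like class was not uniform in these genes, and its make-up differed between the libraries. Cells without a Ccr2 UMI held 773 CPM of H2-DMb2 in aneurysm, against 241 CPM in cells with one, and 1094 CPM against 448 CPM in room air. H2-Oa followed the same split, at 383 and 173 CPM in aneurysm and 733 and 302 CPM in room air. Cells with an Ltb UMI, a lymphotoxin gene, held 473 CPM of H2-DMb2 in aneurysm, against 189 CPM without, and 726 CPM against 239.8 CPM in room air. Within each of the 4 subsets H2-DMb2 lay lower in aneurysm than in room air. Ltb was found in 50.4% of aneurysm cDC2-like cells (interval 44.3% to 56.4%) and 70.4% of those in room air (61.9% to 77.9%). The part of this make-up in the lower H2-DMb2 and H2-Oa was not tested, and the split genes were chosen after the levels were seen.

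H2-Oa and H2-Ob, the DO chains, were highest in B cells in all 3 libraries. For H2-Oa in room air the interval of B cells overlapped that of cDC2-like cells. H2-Oa was at 481 CPM in aneurysm and 445 CPM in room air, against 369 CPM in control B cell-like cells, and H2-Ob at 544, 479.9 and 474 CPM. Beside them, cDC1-like cells held 280, 251 and 116 CPM of H2-Oa and 183, 144 and 211 CPM of H2-Ob. cDC2-like cells held 215 CPM of H2-Oa in aneurysm and 399.9 CPM in room air, but little H2-Ob, 78.4 and 101 CPM. The cDC1-like and cDC2-like cells carried both DO chains at levels above those of T cell-like cells, where H2-Ob was at 42.4, 28.9 and 37.2 CPM for aneurysm, room air and control. A further class carried H2-Oa with little H2-Ob. ILC2-like cells (Gata3, Il1rl1, Calca, Rnf128) had 179.7 CPM of H2-Oa in aneurysm, from 25 UMIs in 43 cells. That was 5.44-fold over T cell-like cells (33.0 CPM; interval 3.24 to 8.91), while H2-Ob was at 14.4 CPM from 2 UMIs. The 24 room air ILC2-like cells had 23 H2-Oa UMIs (369 CPM) and the 32 control cells 3 (47.8 CPM). In aneurysm cells without a B-cell gene UMI the level was 177 CPM.

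Ciita had the fewest UMIs of the 10 genes, 998 in all kept cells. Its level was 92.6 CPM in aneurysm and 94.1 CPM in room air cDC2-like cells. B cell-like cells held 73.9 CPM in aneurysm and 64.1 CPM in room air, against 69.7 CPM in control. Macrophage-like cells held 25.9, 26.4 and 20.9 CPM, and T cell-like cells 3.74 CPM in aneurysm, 3.72 CPM in room air and 0 UMIs in control. In the aneurysm library cDC2-like, B cell-like, cDC1-like and mature dendritic cell-like cells came first in that order, with the intervals of neighbours overlapping. Before thinning a Ciita UMI was found in 45.7% of aneurysm and 48.9% of room air cDC2-like cells, at median depths of 7104.5 and 7143 UMIs. In B cell-like cells it was found in 18.95%, 15.5% and 9.09% for aneurysm, room air and control, at medians of 2397, 2227.5 and 1295 UMIs. T cell-like cells had 1.1%, 0.998% and 0% at medians of 2659, 2498 and 1888 UMIs. At 1000 UMIs a cell, the shares were 7.97% and 9.63% in aneurysm and room air cDC2-like cells, and 9.84%, 2.63% and 0% (1 of 38 cells in room air and 0 of 26 in control, the last with an exact interval up to 13.2%) in cDC1-like cells of aneurysm, room air and control. They were 7.84%, 8.41% and 6.06% in B cell-like cells of the same libraries. Macrophages stood at 2.27%, 2.36% and 1.01%, against 0.183%, 0.499% and 0 of 92 cells among T cell-like cells, the last with an exact interval up to 3.93%.

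Across 36 class-by-library sums, the levels of Ciita and of the 4 core genes H2-Aa, H2-Ab1, H2-Eb1 and Cd74 moved together, with a Pearson correlation of log2 levels of 0.89. These points share 3 libraries and differ in depth, so the value is a description. H2-DMa (0.91) and H2-DMb1 (0.90) followed the core sum more closely than H2-DMb2 (0.75), H2-Ob (0.65) and H2-Oa (0.56). Among the 8403 genes ranked, leaving the members out, the core sum was most like Pkib (0.94), Plekho1, Spi1, Fgd2 and Ly86. Ciita was most like Btk (0.91), Pkib and Csprs, H2-Oa most like Ap1s3 (0.85), Siglecg and Bcl11a, and H2-Ob most like Fcrla (0.87), Siglecg and Bcl11a. H2-DMb2 was most like Siglecg (0.88), A530032D15Rik and Spib (0.84).

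T cell-like cells, which lie outside the presenting lineages, gave the background level of each library. In T cell-like cells 7 of 9 genes stood higher in room air than control, with a sum of 3.27-fold, where 40.9% of all genes were higher and 7.26% lower. Against room air, 5 of 9 were lower in aneurysm, with the sum 1.97-fold lower and backgrounds of 6.56% higher and 17.7% lower. NK cell-like cells gave 6 of 6 higher in room air than control (3.5-fold for the sum, 20.3% higher and 14.6% lower over all genes) and 6 of 6 lower in aneurysm than room air (3.10-fold, 15.9% and 16.3%). Wall cluster 18 gave 6 of 6 higher (3.53-fold, 19.5% and 14.2%) and 5 of 6 lower (1.63-fold, 13.1% and 14.8%) in the same comparisons. Gamma-delta T cell-like cells gave 6 of 6 lower in aneurysm than room air (1.88-fold, 14.2% and 12.3%). In T cell-like, NK cell-like and cluster 18 cells the room air library thus held the highest class II levels. ILC2-like cells differed, with a sum of 11319.5 CPM in aneurysm, 7856 CPM in room air (24 cells) and 1770 CPM in control. In aneurysm the T cell-like sum was 34.4% of the ILC2-like sum. What the ILC2-like level reflects was not tested. The T cell-like sum equalled 7.51%, 16.1% and 7.43% of the macrophage-like sum and 11%, 24.6% and 11.5% of the monocyte-like sum in aneurysm, room air and control.

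Neutrophil-like cells (S100a8, S100a9, Cxcr2) carried 50526 CPM in aneurysm and 55867 CPM in room air. Every one of them also held UMIs of macrophage marker genes, with medians of 100 and 99 per cell, so these class II values cannot be given to neutrophils. There H2-Ob was higher and H2-Oa and Ciita lower in aneurysm, against 7.78% of genes higher and 12.2% lower. Dividing cells, a mixture of lineages marked by Top2a and Birc5, gave 4 of 9 genes lower in room air than control, H2-DMa, H2-DMb1, H2-Oa and H2-Ob, where 31.2% of genes were higher and 9.97% lower. H2-DMa was at 463 CPM in room air, against 1066 CPM in control, 2.30-fold lower. In aneurysm over room air, H2-DMb2 (2.08-fold), H2-Oa (2.30-fold) and H2-Ob (1.56-fold) were the 3 of 10 higher, with 13.6% and 16.4% of all genes higher and lower. Which lineages were dividing was not resolved.

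Genes around the family were read from a list of 48 partners, regulators and processing enzymes, of which 46 are in the tables. In macrophage-like cells, room air over control, 19 of the 42 tested were higher and 5 lower, with a median log2 ratio of 0.37. Over all genes tested in that comparison, 25% were higher and 13.5% lower, with a median of 0.14. Of the antigen-processing genes 6 of 8 were higher and 1 lower. Ctsd, an endosomal protease, was at 2224 CPM in room air, against 551 CPM in control (4.04-fold). Ctss, the protease that trims the invariant chain, was at 5081 and 1708 CPM (2.98-fold), and Ifi30, which reduces disulfide bonds of engulfed proteins, at 489 and 166 CPM (2.94-fold). Cst3, a cathepsin inhibitor, was 1.77-fold lower at 4262 CPM in room air, against 7536 CPM in control. Of the 7 promoter-binding factors, such as Rfx5, 0 passed in either direction (median log2 ratio -0.05). Across the list, Cd9 (5.82-fold), a tetraspanin, Lag3 (5.19-fold, from 54 against 3 UMIs, interval 1.68 to 25.9), a receptor for class II on T cells, and Ctsd were the highest. Irf4 (6.67-fold lower, from 13 against 25 UMIs), March8 (2.08-fold lower), a ubiquitin ligase related to March1, and Cd81 (1.99-fold lower) were the lowest. In aneurysm over room air, 3 of 45 were higher and 2 lower, with a median log2 ratio of -0.04. These were Pax5 (2.28-fold), Cd4 (1.64-fold) and Pdcd1lg2 (1.60-fold), against H2-Eb2 (1.72-fold lower) and Socs1 (1.69-fold lower), at 97 UMIs or fewer in each library. Pax5 and Cd4 also served as B-cell and T-cell markers here. Macrophage-like cells held 81.3 CPM of the B-cell gene Cd79a in aneurysm and 88.7 CPM in room air. The part of B-cell and T-cell RNA in these ratios was not tested.

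The same list gave further values for mature dendritic cells. March1, the ubiquitin ligase that removes class II from the surface of dendritic and B cells, was at 8.27 CPM (4 UMIs) in aneurysm and 0 UMIs in room air mature dendritic cell-like cells, against 71.1 and 60.2 CPM in cDC2-like cells of those libraries. Cd83, which opposes that ligase, was at 815 CPM in aneurysm and 871 CPM in room air mature cells and 255 and 183 CPM in cDC2-like cells. H2-Eb2, a further class II beta gene, was at 190.3 and 171 CPM in mature cells and 13.6 and 12.6 CPM in cDC2-like cells. Spib, an Ets-family factor of B cells, was at 86.9 and 105 CPM in mature cells and 15.6 and 12.6 CPM in cDC2-like cells, beside 187, 178 and 369 CPM in B cell-like cells of aneurysm, room air and control. Ctss was at 1787 and 1779 CPM in mature cells and 3059 and 3111 CPM in cDC2-like cells. These genes were picked from the list after their values were seen.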

How the data were processed

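Per the labels' protocols, the kit was 10x Genomics 3′ v2, and per the submitters' processing notes reads were processed with Cell Ranger and STAR against mm10, in versions not given in the sources used here. Deposited were raw UMI counts per gene and cell. A smoke group that the labels mention is not analysed here. Kept were cells with at least 200 genes and at most 10% mitochondrial UMIs. Scrublet's automatic threshold marked only 0, 1 and 2 cells of aneurysm, room air and control, so the highest scores up to an expected 0.8% per 1000 cells were removed, 64, 27 and 5 cells for aneurysm, room air and control. Clustering (scanpy 1.11.5, 2000 variable genes, 30 components, 15 neighbours, Leiden resolution 1) left out the class II genes. The script was checked on simulated data. Classes with at least 25 cells and genes with at least 20 UMIs over both libraries were compared. Intervals are exact Poisson (levels), Clopper-Pearson (shares) and conditional binomial (ratios). UMIs limit but do not remove PCR duplication. Named were all members, and of other genes the 3 highest and 3 lowest list ratios per macrophage comparison and the 3 to 5 most similar genes, and where stated, genes chosen after their values were seen. Members and lists were chosen with earlier results of these data known.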

Additional observations from a re-analysis of the deposited data

Results flagged for a closer look

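In 6 cases the ratio of a gene between the same 2 libraries pointed past 1.5-fold in opposite directions in 2 cell classes. None of these differences was tested, because each group is 1 library. For H2-DMb1, room air over control, dividing cells were 1.87-fold lower, while NK cell-like cells were 8.64-fold higher (a log2 difference of 4.02), T cell-like cells 10.9-fold higher (4.36) and cluster 18 cells 3.07-fold higher (2.53). The T cell-like value comes from 125 UMIs in room air and 2 in control. Control NK cell-like cells were at 19.5 CPM, the level that 1 UMI gives in them, and control cluster 18 cells at 39.1 CPM. These 3 classes lie outside the presenting lineages. For H2-DMb2, aneurysm over room air, dividing cells were 2.08-fold higher and cDC2-like cells 1.71-fold lower (1.83). For H2-Oa in that comparison, dividing cells were 2.30-fold higher while cDC2-like cells were 1.86-fold lower (2.10) and neutrophil-like cells 1.89-fold lower (2.12). The dividing-cell H2-Oa values rest on 53 UMIs in aneurysm and 18 in room air.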

How the results depend on the processing

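No paired analysis was possible because each group is 1 pooled library, and no replicate could be left out. For the summed level of macrophage-like cells, room air over control, the log2 ratio was 0.60 and kept its direction in all 14 alternatives, from 0.30 to 1.06. It was 0.82 with Apoe left out of the clustering, 0.64 at resolution 2, 0.84 with cells classed one by one on their markers, 0.54 with doublets kept, 0.49 with the doublet rate doubled, 0.46 with the T cell-like level subtracted or with ratios centred on the median gene, 0.74 with thinned cells, 1.06 without cluster 2 and 0.30 without cluster 7 (these last chosen after seeing the data). The count of 6 genes higher became 3 with the doublet rate doubled, with centring and without cluster 7, and 0 with T cell-like levels subtracted; without cluster 7, 1 gene was lower. Aneurysm over room air, the log2 ratio of 0.12 was 0.15 with the members allowed in the clustering, 0.14 with Apoe left out, at resolution 2, at 500 genes and 5% mitochondrial UMIs, or centred, 0.26 with T cell-like levels subtracted or without cluster 7, 0.092 thinned and 0.067 without cluster 2. The count of 0 genes lower became 1, H2-Oa, with cells classed one by one on their markers. In monocyte-like cells the sum, room air over control, was 0.61, and -0.22 under the filter of 500 genes and 5% mitochondrial UMIs. Aneurysm over room air, that sum was 0.18, and -0.018 at resolution 2 and -0.16 with cells classed one by one on their markers. The cause of these changes was not tested. Of the macrophage-like sums and gene counts, 59 held and 25 moved over the alternatives. Of the other values, 419 held, 208 moved and 1 reversed its direction. Moved meant outside the counting interval for levels, ratios and shares. For counts of genes it meant a change past 1.5-fold or to or from 0, and for medians a change beyond a fixed band. Low counts limit Ciita, H2-Oa and H2-Ob in macrophages and monocytes, and H2-DMb2 in control monocytes.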

Other observations

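Small classes gave further values for the 10 genes. Plasma cell-like cells held a summed level of 30137 CPM in aneurysm (14 cells) and 31795 CPM in room air (20 cells). In pDC-like cells the sum was 33859 CPM in aneurysm (22 cells) and 28083 CPM in room air (8 cells). Fibroblast-like cells differed between libraries, with 2844 CPM from 10 cells in aneurysm and 23888 CPM from 8 cells in room air, numbers too small to compare.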
